A study of Mus musculus with 6 samples.

Results

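The C-type lectin receptors of myeloid cells are membrane proteins with which macrophages bind sugars and other ligands on microbes and dying cells. The 10 genes described here, Clec4a1, Clec4a2, Clec4a3, Clec4d, Clec4e, Clec4n, Clec5a, Clec7a, Clec10a and Clec12a, were chosen by symbol, and each matched 1 gene of the 55421 in the count table. RNA was sequenced from macrophages that had been grown in culture from the marrow progenitors of mice. The wells of the 2 genotypes gave 6 libraries: 3 from Tmem175flox/flox Lyz2-Cre+/- cells, whose genotype is also labelled Tmem175-/- and which are called knockout here, and 3 from cells labelled WT. Tmem175 encodes a cation channel of endosomes and lysosomes, and the comparison asks how macrophages differ without it. In the knockout, Cre is expressed from the lysozyme locus, which is active in myeloid cells. With no library of Cre alone or of floxed alleles alone, loss of Tmem175 cannot be told apart from effects of Cre, of its insertion or of the strain. The labels name neither animals nor age and give no further treatment, so p-values measure the spread between wells, which may be technical.

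Many members of the family fall into an activating or an inhibitory arm. Activating receptors carry a tyrosine motif in their own tail, as Clec7a does, or pair with the adaptor chains encoded by Fcer1g and Tyrobp. Both routes recruit the kinase Syk and, through Card9, Bcl10 and Malt1, drive NF-kB and the release of cytokines. Inhibitory members carry an ITIM, a tail motif that recruits phosphatases such as the product of Ptpn6. Several of these receptors are also made by neutrophils, monocytes and dendritic cells, so their mRNA is not a mark of macrophages alone.

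The genes lie mostly in one region of the genome. On the GRCm38 build, 6 members lie on chromosome 6 between the start of Clec4a1 at 122921848 and the end of Clec4e at 123289870, in the order Clec4a1, Clec4a3, Clec4a2, Clec4n, Clec4d and Clec4e. Clec12a (129342691 to 129365303) and Clec7a (129461591 to 129472779) lie further along chromosome 6, Clec5a lies apart on it (40574894 to 40585821), and Clec10a is on chromosome 11 (70156197 to 70170834). GENCODE M21 annotates 9 members as protein coding and Clec7a as a polymorphic pseudogene, a class for genes that are intact in some strains and disrupted in others.

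Sequence upstream of the start is shown for 3 members, because Clec4d and Clec4e followed the same course over the libraries below and Clec7a the opposite one. Each run is the 250 bases before the RefSeq start on GRCm38.p6, written 5′ to 3′ on the gene's strand, and capitals mark matches on either strand to the motifs named after them. Clec4d is on the plus strand at chr6:123261857-123262106, Clec4e on the minus strand at chr6:123289872-123290121 and Clec7a on the minus strand at chr6:129472780-129473029.
Clec4d: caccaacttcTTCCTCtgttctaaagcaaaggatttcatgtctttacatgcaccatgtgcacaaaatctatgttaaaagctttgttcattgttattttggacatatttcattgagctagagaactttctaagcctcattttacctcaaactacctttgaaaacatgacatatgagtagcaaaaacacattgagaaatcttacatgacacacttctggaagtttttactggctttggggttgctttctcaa
Clec4e: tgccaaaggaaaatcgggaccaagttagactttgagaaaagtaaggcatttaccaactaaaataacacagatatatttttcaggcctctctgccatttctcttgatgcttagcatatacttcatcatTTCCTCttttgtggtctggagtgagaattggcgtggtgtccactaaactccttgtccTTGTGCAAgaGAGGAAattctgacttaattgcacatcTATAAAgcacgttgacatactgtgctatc
Clec7a: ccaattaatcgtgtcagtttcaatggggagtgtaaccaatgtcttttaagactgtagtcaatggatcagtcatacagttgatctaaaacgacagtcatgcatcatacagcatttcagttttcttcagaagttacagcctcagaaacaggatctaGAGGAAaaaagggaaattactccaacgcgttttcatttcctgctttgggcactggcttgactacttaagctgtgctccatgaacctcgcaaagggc
The motifs searched were GAGGAA for PU.1, the factor that sets up macrophage enhancers, TGANTCA for AP-1, TTGCNNAA for C/EBP and TATAAA for the TATA box. No match overlapped another in these 3 runs. GAGGAA matched once in Clec4d, 240 bases upstream, once in Clec7a, 96 bases upstream, and at 123 and 56 bases upstream in Clec4e. Clec4e also held the C/EBP letters 66 bases and TATAAA 29 bases upstream. RefSeq windows were matched for 8 members, all but Clec4n and Clec10a. GAGGAA was present in 6 of the 8, against 23.3% of 32851 windows of this length, and the C/EBP letters in 2 of the 8, against 9.56%. TATAAA was present in 3 of the 8, against 12.4%. AP-1 letters were in 1 of the 8, against 6.75%. These matches are letters in a window and were not tested for binding.

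The libraries were checked first. Total counts ran from 24179548 to 31542741. Tmem175 fell from 33.2 ± 0.318 to 13.2 ± 1.13 CPM in the knockout (CPM is a gene's count relative to the TMM-scaled library total; SD, n = 3 each), which is -1.33 on the log2 scale, with an SE of 0.07 and an adjusted p of 6.01e-05 in edgeR's quasi-likelihood test. All 8 macrophage markers looked up, among them Adgre1, Csf1r and Cd68, were expressed, and their summed level was 9243 to 10021 CPM in the knockout and 9147 to 10163 CPM in the wild type. The libraries also differed apart from genotype. On the first principal component over all tested genes, with 29.3% of the variance, knockout replicate 1 (2.62) and wild type replicates 1 and 2 (19.9 and 17.5) lay on one side. Knockout replicates 2 and 3 (-17.4 and -13.2) and wild type replicate 3 (-9.41) lay on the other.

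All 10 members were well expressed and all 10 passed the filter on low counts. Their counts ran from 1302 to 15359 per library, for which the counting error is 2.77% at the lowest and 0.807% at the highest. To set genes side by side, levels were divided by exon length, as CPM per kilobase over 6 libraries. Clec4a1 (mean 253, range 231 to 276 CPM per kilobase) and Clec4d (242, 202 to 272) were the most abundant. Clec7a (146, 95.3 to 185) and Clec4a3 (136, 126 to 145) followed. A group of 5 came next: Clec12a at a mean of 76.9 CPM per kilobase, Clec10a at 70.5, Clec4a2 at 67.3, Clec4e at 62.3 and Clec4n at 56.9. Clec5a was lowest at 16.9 CPM per kilobase (14.2 to 19.3). Ranges of neighbours in this order overlapped except at 3 steps, below Clec4d, below Clec4a3 and below Clec4n. With the longest transcript as the length, Clec4d stood at 293 CPM per kilobase, above Clec4a1 at 253. With that length Clec12a stood at 131 CPM per kilobase, near Clec4a3. The places of Clec4d and Clec12a in the order therefore depend on the gene model. For comparison, the adaptor genes Tyrobp and Fcer1g stood at 1474 and 1163 CPM per kilobase.

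**Figure D1:**
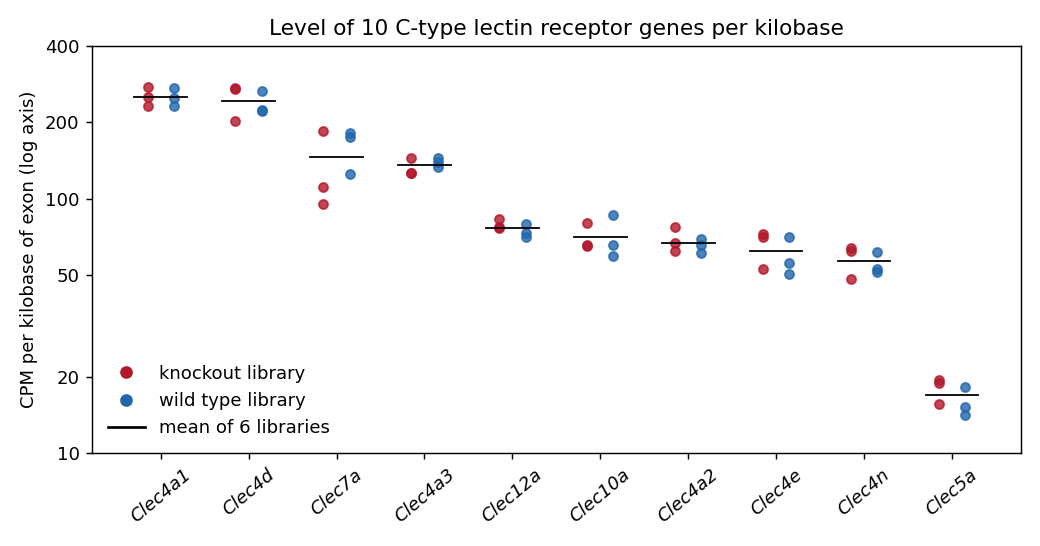
Level of each member in CPM per kilobase of exon on a log axis, with 1 point per library (red, knockout; blue, wild type) and a line at the mean of 6 libraries. Clec4a1 and Clec4d lie highest and Clec5a lowest, and within each gene the red and blue points overlap.

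Knockout and wild type macrophages did not separate at any of the 10 genes. None was called higher or lower at an adjusted p under 0.05 in edgeR's quasi-likelihood test, where 0.103% of 13588 tested genes were called, 0.0883% lower and 0.0147% higher. No member had an unadjusted p under 0.05 in this fit either, against 5.44% of all tested genes, and the DESeq2 and limma-voom tests called none. The 2 genotypes overlapped at every member. Over all tested genes they did not overlap at 10.8%, 5.06% lower and 5.73% higher in the knockout. For a list of 10 genes, none lies near these shares and does not set the members apart from other genes. Of the log2 fold changes 7 were positive and 3 negative, with a median of 0.07, beside 49.6% positive and a median of -0.00090 over all tested genes. The median of the members turned to -0.0096 without knockout replicate 3.

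**Figure D2:**
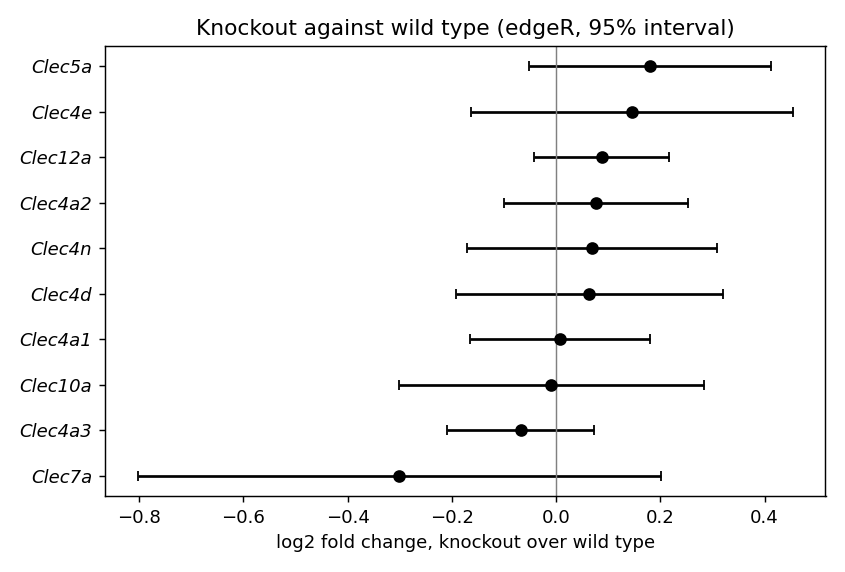
Log2 fold change of knockout over wild type for each member (x axis; points) with the 95% interval of edgeR's fit (bars). Every interval crosses 0, and that of Clec7a is the widest, from -0.80 to 0.20.

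Among the activating receptors, Clec7a, also called Dectin-1, binds beta-glucans of fungal walls. Its levels were 487, 251 and 295 CPM in knockout replicates 1 to 3 and 461, 482 and 331 CPM in wild type replicates 1 to 3. Knockout replicate 1 was the highest of all 6 libraries, the other two knockout libraries were the lowest, and wild type replicate 3 lay between these and the rest. The log2 fold change was -0.30 (SE 0.22, 95% interval -0.80 to 0.20, adjusted p = 0.968, edgeR), so the fit leaves a range from 0.573 to 1.15 times the wild type level. Without 1 library at a time it ran from -0.63, without knockout replicate 1, to -0.12, without knockout replicate 2; the adjusted p was 0.210 and 1.000 in these fits.

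Clec4e (Mincle) recognises mycobacterial glycolipid and a nuclear protein released by dying cells, and signals through the Fcer1g chain. It stood at 263, 352 and 360.1 CPM in the knockout and 252, 279 and 351 CPM in the wild type. Each genotype held both low and high libraries, and the log2 fold change was 0.15 (SE 0.14, 95% interval -0.16 to 0.45, adjusted p = 0.971, edgeR). Clec4d (MCL), the neighbouring gene, encodes a receptor that pairs with Mincle and supports its display on the surface. It stood at 323, 431 and 435 CPM in the knockout and 355, 357 and 426 CPM in the wild type, with the same libraries low and high as for Clec4e, and a log2 fold change of 0.06 (SE 0.11, 95% interval -0.19 to 0.32).

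Clec4n (Dectin-2) binds mannose-rich glycans of fungi and also uses the Fcer1g chain. Its levels were 68.6, 91.2 and 88.4 CPM in the knockout and 73.4, 75.4 and 87.7 CPM in the wild type. Knockout replicate 1 was lowest and the genotypes overlapped, with a log2 fold change of 0.07 (SE 0.11, 95% interval -0.17 to 0.31). Clec5a (MDL-1), a receptor that signals through the Tyrobp chain and is known for binding flaviviruses, stood at 60.0, 72.5 and 74.2 CPM in the knockout and 54.4, 58.1 and 69.9 CPM in the wild type. It had the smallest p of the members, which did not pass: the log2 fold change was 0.18 (SE 0.10, 95% interval -0.05 to 0.41, unadjusted p = 0.113, adjusted p = 0.953, edgeR), and wild type replicate 3 lay above knockout replicate 1.

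The Clec4a genes belong to the DCIR group, in which Clec4a2 carries an ITIM, which gives an inhibitory signal. Clec4a2 stood at 183, 197 and 226 CPM in the knockout and 179, 203 and 193 CPM in the wild type, a log2 fold change of 0.08 (SE 0.08, 95% interval -0.10 to 0.25). Knockout replicate 3 was the highest library, and the other 5 lay within 178.7 and 203 CPM. Clec4a1 stood at 360.4, 394 and 429 CPM in the knockout and 361, 389.8 and 427 CPM in the wild type, so that each library of one genotype had a near match in the other. Its log2 fold change was 0.0075 (SE 0.08, 95% interval -0.17 to 0.18). Clec4a3 stood at 168, 167 and 193 CPM in the knockout and 177, 185 and 192 CPM in the wild type. Its highest library was a knockout one although its log2 fold change was -0.07 (SE 0.06, 95% interval -0.21 to 0.07).

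Clec12a (MICL), an ITIM receptor for uric acid crystals of dead cells, had the smallest SD of log2 CPM within genotype of the members (0.08), while Clec4a3 had the narrowest range over the 6 libraries, 1.15-fold against 1.18-fold for Clec12a. Its levels were 426, 460.2 and 428 CPM in the knockout and 391, 405 and 441 CPM in the wild type. Wild type replicate 3 lay above 2 of the knockout libraries, and the log2 fold change was 0.09 (SE 0.06, 95% interval -0.04 to 0.22, adjusted p = 0.966, edgeR). Clec10a (MGL1), which binds galactose-type sugars and is used as a marker of alternative activation, stood at 189, 190.3 and 233 CPM in the knockout and 173, 191 and 251 CPM in the wild type. The lowest and the highest library were both wild type. Its log2 fold change was -0.0091 (SE 0.13, 95% interval -0.30 to 0.28) and changed sign with library totals as the scaling (0.04).

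**Figure D3:**
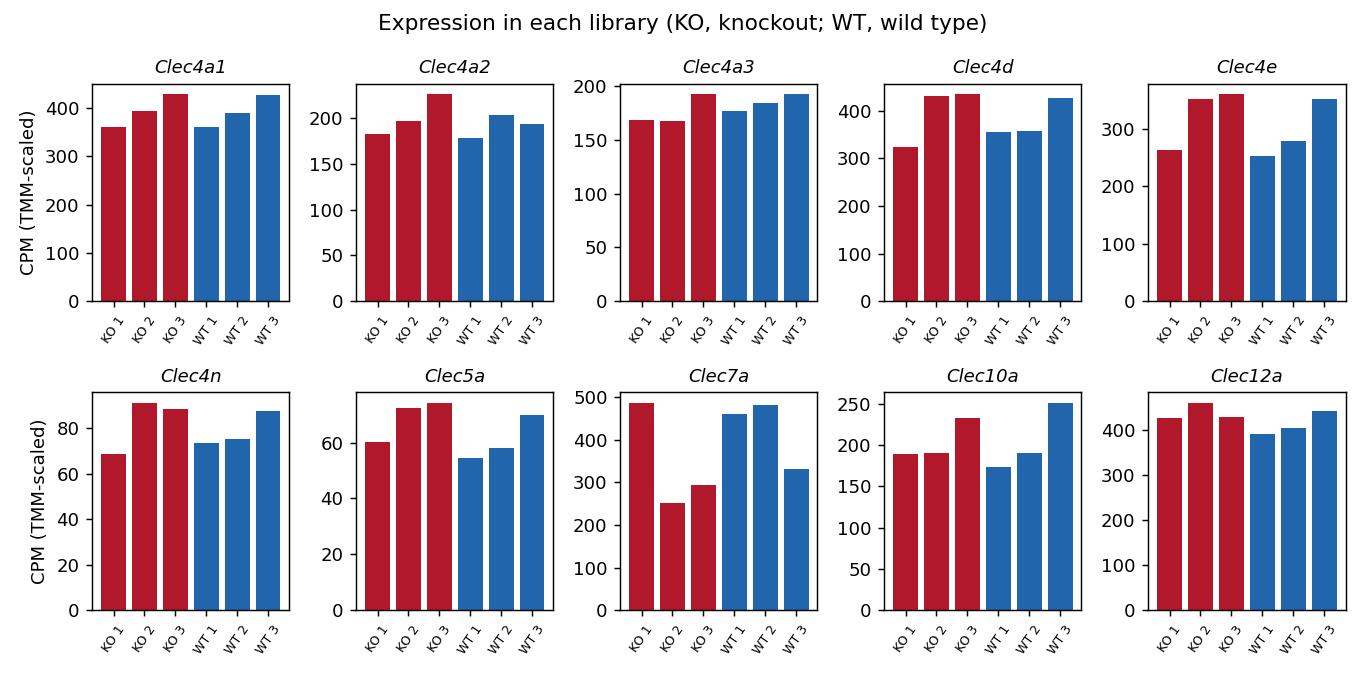
TMM-scaled CPM of each member (y axis, from 0, with its own scale per panel) in the 3 knockout (red) and 3 wild type (blue) libraries. Clec7a is high in KO 1, WT 1 and WT 2, where Clec4d, Clec4e, Clec4n and Clec5a are low.

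At each of the 10 members, the ratio of the highest to the lowest library within either genotype was larger than the fold change between genotypes. The share of all tested genes for which this holds was not computed, so it is not read as particular to the members. Within knockout libraries the highest value of Clec7a was 1.94 times the lowest, and within wild type libraries 1.46 times. For Clec4e these ratios were 1.37 and 1.39, and for Clec12a 1.08 and 1.13. The SD of log2 CPM within genotype, pooled over both, was 0.41 for Clec7a, which is larger than that of 99.5% of the 778 tested genes within 2-fold of its level. It was 0.25 for Clec4e, 0.23 for Clec10a and 0.20 for Clec4d, above 97.8%, 97.7% and 94.7% of genes of like level. Clec4n (0.19) and Clec5a (0.18) lay above 95.9% and 95.3%. Clec4a2 (0.13), Clec4a1 (0.12) and Clec4a3 (0.09) lay above 87.9%, 84.4% and 79.0%, and Clec12a (0.08) above 66.7%. All 10 thus varied more between wells than the median gene of their level, which had an SD of 0.058 to 0.062.

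**Figure D4:**
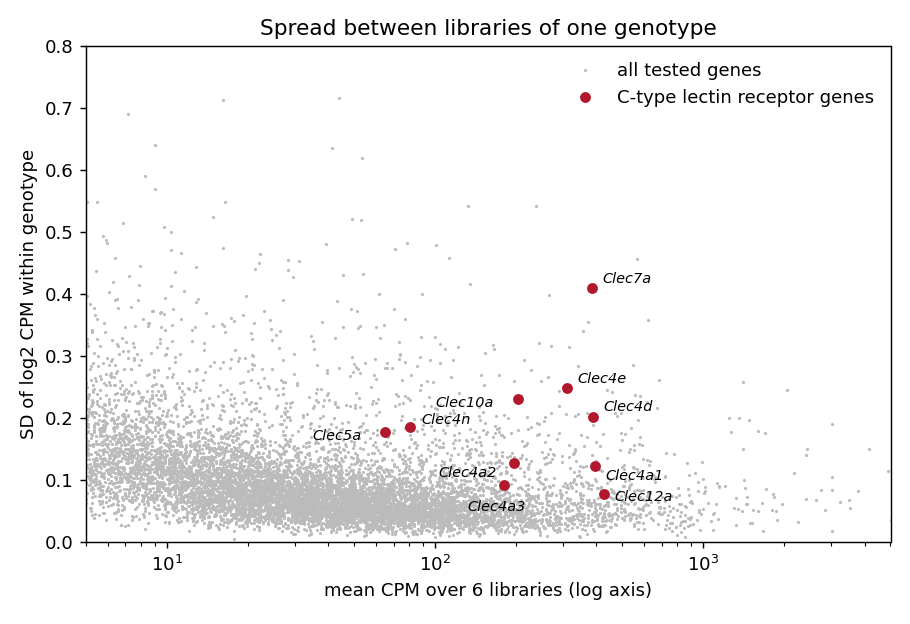
SD of log2 CPM between libraries of one genotype, pooled over both (y axis), against mean CPM over 6 libraries (log x axis); grey points are all tested genes within the axes and red points the members. Clec7a, at 0.41, lies well above the other members, which run from 0.08 to 0.25.

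The libraries that were high for one member were not high for all. Knockout replicate 1 and wild type replicates 1 and 2 held the 3 lowest values for 6 of the 10 members, Clec4a1, Clec4d, Clec4e, Clec4n, Clec5a and Clec12a. The same 3 libraries held the 3 lowest values for 10.8% of all tested genes. For Clec4a1 and Clec12a the gap was narrow, with 389.8 against 394 CPM and 426 against 428 CPM at the boundary. Clec7a went the other way: these libraries held its 3 highest values, as for 11.0% of all tested genes. Clec4a2, Clec4a3 and Clec10a followed neither order. This order was seen in the data and carries no test, and the labels name no batch that matches it. The first principal component split the libraries into the same sets, but knockout replicate 1 (2.62) lay near its middle.

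**Figure D5:**
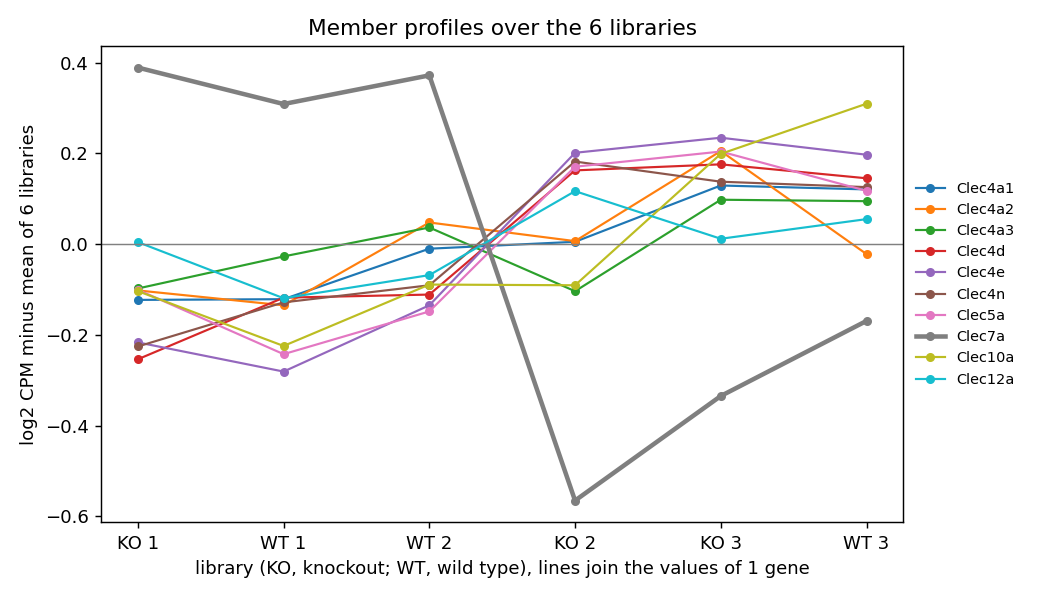
Log2 CPM of each member minus its mean over 6 libraries (y axis) in each library (x axis), with the libraries placed by the order described in the text and not by genotype. Clec7a (thick line) runs from 0.39 in KO 1 to -0.57 in KO 2, and Clec4e from -0.22 to 0.20.

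Among the genes whose course over the 6 libraries was most like that of Clec7a, by the root mean square difference of centred log2 CPM over 8239 genes, were Ccr7 (0.08), a chemokine receptor of mature dendritic cells, and Fstl1 (0.11), which encodes a secreted glycoprotein. Ccr7 stood at 14.9, 8.52 and 9.59 CPM in the knockout and 15.4, 14.7 and 11.6 CPM in the wild type. For Clec10a, the member with the next widest range, they were Tmem176b (0.07), Ly6e (0.08) and Tmem173 (0.08). Ly6e, an interferon-induced membrane protein gene, was highest in wild type replicate 3 at 1841 CPM, as Clec10a was.

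Markers of other cells were set beside these levels, since fewer cells of a type and less RNA per cell cannot be told apart in bulk RNA. None of the markers had a count of 0 in all 6 libraries. The 10 dendritic cell markers summed to 45.3, 32.6 and 37.7 CPM in the knockout and 52.5, 51.7 and 43.6 CPM in the wild type. Ccr7, already named among the genes most like Clec7a, and Fscn1 made up the largest part of this sum. Of the 10 dendritic cell markers, 8 had negative and 2 positive log2 fold changes, with a median of -0.36. At an unadjusted p under 0.05 (edgeR), 3 were lower and 0 higher, against 5.44% of all tested genes in either direction, and none was called. Within the knockout libraries, Ccr7, Fscn1, Siglech and Dpp4 were highest in replicate 1, as Clec7a was. Flt3, Zbtb46, Cd209a, Xcr1 and Kmo were lowest there, and Clec9a lay between. Mean levels of the 10 markers ran from 0.106 CPM per kilobase for Xcr1 to 6.29 for Ccr7, and that of Clec7a was 146 CPM per kilobase. Mast cell and basophil markers summed to 6.09 to 14.1 CPM in the knockout and 14.6 to 22.8 CPM in the wild type. These sums did not overlap. All 5 tested had negative log2 fold changes with an unadjusted p under 0.05 in edgeR's test. Over all tested genes, 5.44% had such a p in either direction. None of these markers was called, and none exceeded 12.7 CPM in any library. The 11 neutrophil markers summed to 815 to 881 CPM in the knockout and 485 to 711 CPM in the wild type, again without overlap, and S100a8 and S100a9 were the most abundant of them per kilobase. Singly, 4 of the 11 neutrophil markers did not overlap between genotypes, against 10.8% of all tested genes. The 3 higher were S100a8 (log2 fold change 0.70, SE 0.10, adjusted p = 0.0521, edgeR), S100a9 (0.61, SE 0.11) and Lcn2 (0.53, SE 0.12). Mpo was lower (-0.76, SE 0.18), and none was called at an adjusted p under 0.05. Monocyte markers summed to 276 to 286 and 272 to 304 CPM in the knockout and wild type libraries. Lymphocyte markers summed to 80.2 to 112 and 109 to 167 CPM, and fibroblast markers to 13.5 to 26.7 and 8.79 to 38.1 CPM. Cd4 alone, at 77.8 to 161 CPM, made up most of the lymphocyte sum. At an unadjusted p under 0.05 (edgeR), 1 of 6 monocyte markers was higher and 2 lower. Of 5 lymphocyte markers tested, 3 were lower at such a p. None of these was called, and 5.44% of all tested genes had such a p in either direction. The part of these cells in the levels of the members was not tested.

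Of the 25 genes for adaptors and activating signals downstream of the receptors, all 25 were tested and none was called, with a median log2 fold change of -0.02. At an unadjusted p under 0.05, 2 were lower, against 5.44% of all tested genes in either direction. The most abundant per kilobase were Tyrobp and Fcer1g, with log2 fold changes of 0.08 (SE 0.05) and -0.02 (SE 0.06). Syk had a mean of 674 CPM in the knockout and of 688 CPM in the wild type. Src, a kinase gene, had the smallest p, at 27.4, 24.0 and 22.4 CPM in the knockout and 33.0, 31.8 and 26.4 CPM in the wild type (log2 fold change -0.30, SE 0.10, adjusted p = 0.820, edgeR). Fgr (-0.14, SE 0.06) and Nfatc2 (-0.12, SE 0.06) followed.

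The inhibitory side gave the same count. None of 8 phosphatase and regulator genes was called, with a median of -0.0099. At an unadjusted p under 0.05, 1 gene, Csk, was lower, against 5.44% of all tested genes in either direction. Ptpn6, the most abundant, showed a log2 fold change of -0.0087 (SE 0.07), and Inpp5d, a lipid phosphatase gene, one of -0.0026 (SE 0.05). For Csk, a kinase that restrains Src kinases, it was -0.10 (SE 0.04, adjusted p = 0.908, edgeR), with the genotypes not overlapping. Dok3 (0.12, SE 0.08) and Ptpn11 (-0.04, SE 0.04) had the next smallest p.

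Of 34 other C-type lectin genes, 22 passed the filter on low counts, none was called, and 2 had a count of 0 in all libraries. Their median log2 fold change was -0.05, with 8 positive and 14 negative. The genotypes did not overlap at 4 of the 22, 2 lower and 2 higher in the knockout, against 10.8% of all tested genes. At an unadjusted p under 0.05 (edgeR), 2 of the 22 were lower and 1 higher, against 5.44% of all tested genes in either direction. The most abundant per kilobase were Cd93 (120.3), Clec2d (103) and Cd302 (78.8 CPM per kilobase), with log2 fold changes of 0.01 (SE 0.06), -0.0027 (SE 0.06) and 0.08 (SE 0.09). Colec12, a scavenger receptor with a lectin domain, had the smallest p, at 22.9, 18.1 and 21.9 CPM in the knockout and 32.1, 26.3 and 30.3 CPM in the wild type (log2 fold change -0.49, SE 0.10, adjusted p = 0.280, edgeR). Klrk1 (-0.58, SE 0.19), at 2.94 CPM or below, and Pla2r1 (0.93, SE 0.33), at 1.41 CPM or below, came next.

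Similar sequence in other genes limits some of these values. Transcripts of Clec10a aligned to Mgl2, its neighbouring paralog, with 92.8% identity over 851 bases, and Mgl2 stood at 12.1 CPM per kilobase against 70.5 for Clec10a. Clec4a2 aligned to Clec4b1 with 96.3% identity over 436 bases and to Clec4a4 with 85.1% over 730 bases. A stretch of 223 bases in Clec4a2 also aligned to transcripts of Rock1 (87.0%) and Vmn2r76 (85.7%). Clec4n aligned to Clec4b1 and Clec4b2 with 86.2% over 218 bases. Clec4b1 stood at 7.26 CPM in the knockout and 7.22 CPM in the wild type, and Clec4a4 and Clec4b2 lay below it. Reads that fit both genes of a pair cannot be told apart in these counts. No exon of a member overlapped an exon of another annotated gene.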

How the data were processed

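The authors deposited 1 table of raw counts, with a row per Ensembl gene; the submitters' processing notes name HISAT2, featureCounts and the GRCm38 build. Versions, annotation release and strand setting were not given in the sources used here. Symbols, exon lengths and positions came from GENCODE M21, which matched 55240 of 55421 IDs, and upstream sequences from RefSeq on GRCm38.p6. The members and gene lists were chosen with earlier results of these data known. All 10 members are named. From each list of pathway genes, those named are the called ones, the 3 with the smallest p and the 3 most abundant per kilobase. Genes like a member were searched for the 2 members of widest range (minimum mean 10 CPM). Syk, Il6, Csf3, single markers and paralogs were named outside this rule, after their values were seen. For 2 genes that the rule names, values are not reported here.

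Genes were filtered with filterByExpr and scaled by TMM, and 13588 were fitted with genotype as the only term by edgeR 4.0.16 (R 4.3.3), with the two-sided quasi-likelihood test and Benjamini-Hochberg adjustment over all tested genes at 0.05. Standard errors were derived from the F statistic. Profiles used log2(CPM + 0.5). Alternatives were 3 scalings, DESeq2 1.42.0, limma-voom (limma 3.58.1), 2 filters, the replicate block and leaving out each library. No pair of libraries within a genotype agreed within sampling noise, with a chi-square per degree of freedom of 3.66 to 17.6. Similar transcripts were searched with BLAST at 85% identity over at least 200 bases.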

Additional observations from a re-analysis of the deposited data

How the results depend on the processing

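No member was called in any of 14 alternatives, with adjusted p-values down to 0.166 for Clec7a without a filter. Over all genes, 12 were lower and 2 higher in edgeR's test. The counts were 30 and 10 with the DESeq2 test, 112 and 39 without a filter, and 5 and 0 with a minimum mean of 10 CPM. Without 1 library at a time they ran from 4 to 10 lower and from 0 to 2 higher. The median log2 fold change of the members ran from -0.0096 (without knockout replicate 3) to 0.15 in those fits. Signs turned only for members near 0. Clec10a went to 0.036 with library totals and 0.0023 with limma-voom, and from -0.12 to 0.16 without 1 library. Without 1 library, Clec4a1 ran from -0.057 to 0.072, Clec4a2 from -0.012 to 0.15, Clec4d from -0.0075 to 0.19 and Clec4n from -0.0051 to 0.19. With the replicate number as a block, 14 genes were lower and 3 higher, no member was called, and Clec10a stood at 0.0023. Clec5a and Clec4e had unadjusted p-values of 0.012 and 0.047 in that edgeR fit. At an unadjusted p under 0.05, 495 of all tested genes were lower and 345 higher there. Without knockout replicate 1, the unadjusted p (edgeR) was 0.0012 for Clec7a, which was lower in the knockout. In the same edgeR fit it was 0.013 for Clec5a, 0.028 for Clec4n, 0.030 for Clec4d and 0.030 for Clec4e, all higher in the knockout. At an unadjusted p under 0.05, 708 of all tested genes were lower and 494 higher in that fit. The unadjusted p-values of these members thus depended on knockout replicate 1. Some members also had an unadjusted p under 0.05 without a filter, with library totals and in other fits without 1 library. The correlations of same-numbered deviations were 0.41, -0.25 and 0.20, and 3 of 6 libraries correlated best with their own number. With so few libraries, these values do not settle whether the numbers pair them. The cause of these changes was not tested. The lowest count of a member was 1302, with a counting error of 2.77%; other depths were not run.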

Other observations

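Genes that these receptors are known to induce on ligand binding were mostly expressed at low levels. Of 17 such genes, 13 passed the filter on low counts and none was called. Of these, 4 had positive and 9 negative log2 fold changes, with a median of -0.22. At an unadjusted p under 0.05 (edgeR), 3 of the 13 were lower and 0 higher, against 5.44% of all tested genes in either direction. The chemokine genes Ccl3 and Ccl4 and the cytokine gene Tnf were the most abundant, at 106, 57.1 and 18.0 CPM per kilobase, with log2 fold changes of 0.08 (SE 0.07), -0.02 (SE 0.06) and 0.05 (SE 0.10). Nfkbiz, an NF-kB cofactor gene, had the smallest p, at 60.4, 71.2 and 71.9 CPM in knockout and 71.0, 79.9 and 85.6 CPM in wild type libraries (log2 fold change -0.22, SE 0.08, adjusted p = 0.903, edgeR). Nos2 (-1.19, SE 0.50) and Ptgs2 (-0.60, SE 0.26) came next at 1.51 CPM or below. Il6 reached no more than 0.0685 CPM on average in either group, and Csf3 had a count of 0 in all 6 libraries.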
